A study of Mus musculus with 12 samples.

Results

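Transcripts of 50 mouse genes of xenobiotic metabolism were followed in small intestine that had lost the tumour suppressor gene Apc, with or without the additional loss of Eif3h. The 50 genes were a named list of 14 cytochromes P450, 7 carboxylesterases, 5 alcohol dehydrogenases and aldo-keto reductases, 5 UDP-glucuronosyltransferases (UGTs), 10 glutathione S-transferases (GSTs), 3 sulfotransferases, 3 receptors and 3 efflux pumps. The rule that names them uses no measured value, but the genes were picked with earlier results of these data known. All 50 were found among the 55421 genes of the count table, and all 50 were among the 17394 genes with enough counts to test.

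Gene counts came from 12 RNA sequencing libraries of mouse small intestine, 4 in each of 3 groups. Apc Eif3h mice carried VilCreER with homozygous floxed alleles of both Apc and Eif3h, and Apc mice carried VilCreER with floxed Apc alone. WT mice were the control, and the labels do not say whether they carried the Cre. VilCreER is a Cre recombinase that tamoxifen switches on and that the villin promoter confines to gut epithelium, so other cells of the tissue keep their alleles. Tamoxifen was given to all groups as 2 injections of 80 mg/kg 24 h apart, per the labels. The labels place Apc Eif3h and Apc at day 4 and WT at day 7, while the treatment text gives day 7 for all, so that genotype and day cannot be told apart in comparisons with WT. All 4 Apc Eif3h libraries were from males, while Apc and WT each had 3 males and 1 female (Apc replicate 1 and WT replicate 4). The labels do not state that replicates were separate animals, and p-values therefore measure the spread between these samples.

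The intestinal epithelium is the first tissue to meet swallowed drugs, plant compounds and pollutants. Phase I enzymes oxidise, reduce or hydrolyse such molecules, phase II enzymes attach glucuronate, glutathione or sulfate, and efflux pumps return the products to the lumen. The receptors Nr1i2 (PXR), Nr1i3 (CAR) and Ahr bind foreign molecules and switch on many of the genes for these enzymes, which are made mainly by mature enterocytes of the villus. Apc holds together the destruction complex of beta-catenin, and Eif3h is a subunit of the translation initiation factor eIF3.

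Levels are given as CPM, gene counts per 1000000 counts of the library after TMM scaling, and always in the order of replicates 1 to 4. Library totals were 10483112 to 21298301 counts. Eif3h itself was at 28.3, 43.1, 54.6 and 25.9 CPM in Apc Eif3h, 168, 164, 158 and 175 CPM in Apc and 142, 126, 134 and 135 CPM in WT, below every other library in Apc Eif3h (Apc Eif3h against Apc, log2 fold change -2.13, SE 0.19, adjusted p = 0.000405, edgeR quasi-likelihood test). Counts over the whole Apc gene can miss the deletion of a single exon, and they were higher in Apc than in WT (log2 fold change 0.28, SE 0.087, adjusted p = 0.0176).

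Apc intestine held far less transcript of the xenobiotic genes than WT. In edgeR's quasi-likelihood test with Benjamini-Hochberg adjustment, 43 of the 50 genes fell in Apc against WT, or 86%, where 24.1% of all genes tested fell. Only 2 rose, the sulfotransferase Sult1a1 and the aldo-keto reductase Akr1b8, or 4%, against 27.7% of all genes. The 5 without a call were Cyp27a1, Cyp2d26, Gstk1, Nr1i3 and Ahr. The fall exceeded 2-fold for 33 of the genes, against 6.54% of all genes, and in 42 genes every Apc library was below every WT library, against 22% of all genes. The median log2 fold change of the 50 was -1.54, beside -0.0099 for all genes. In bulk tissue, fewer cells of a type and less RNA per cell cannot be told apart.

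Set against Apc, Apc Eif3h intestine had 5 of the 50 genes higher and 0 lower by the same test. The 5 were Cyp3a11, Ugt2b5, Ces1g, Ces2b and Ces2c, or 10%, where 4.27% of all genes rose, and 2.78% fell. At an unadjusted p below 0.05, 17 were higher and 1 was lower, where 12.6% of all genes were higher and 11% lower. DESeq2 called 9 higher and 0 lower, where it called 6.16% of all genes higher and 4.05% lower. The median log2 fold change was 0.35, beside -0.0019 for all genes. The count of 5 depended on single libraries, and so did the share of all genes called higher. Without Apc replicate 3 it was 0, beside 1.37% of all genes. It was 1 without Apc replicate 1, Apc replicate 4 or Apc Eif3h replicate 4, beside 2.8%, 2.56% and 2.61% of all genes. Without Apc Eif3h replicate 2 it was 2, beside 2.37%, without Apc Eif3h replicate 3 it was 3, beside 6.51%, and without Apc Eif3h replicate 1 it was 9, beside 2.35%. With males only it was 0, beside 2.24% of all genes, and with sex as a covariate it was 5, beside 3.33%.

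Between Apc Eif3h and WT, 28 of the 50 genes fell, or 56%, where 28.1% of all genes fell. The same 2 genes, Sult1a1 and Akr1b8, rose, against 29.8% of all genes. In 23 genes every Apc Eif3h library was below every WT library, which held for 20.7% of all genes. The median log2 fold change was -0.93, beside -0.029 for all genes. Apc Eif3h against Apc and Apc against WT share the Apc libraries, and the 2 comparisons with WT share the WT libraries, so the counts are not independent of each other.

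The libraries of 1 group did not behave alike for these genes. The CPM of the 50 genes summed to 6293, 8745, 15123 and 9795 in Apc Eif3h, 5450.4, 9186, 6917 and 7448 in Apc and 19742, 17821, 17746 and 19392 in WT. Apc Eif3h replicate 3 was thus nearest to WT without reaching it. It was the highest of its group in 45 of the 50 genes, and replicate 1 was the lowest in 40. In Apc, replicate 2 was the highest in 40 genes and replicate 1, the female, the lowest in 41. Apc Eif3h replicate 3 also had the most Eif3h transcript of its group, at 54.6 CPM against 25.9 to 43.1 CPM in the other 3. The least was in replicate 4 (25.9 CPM), whose xenobiotic sum of 9795 CPM was above those of replicates 1 and 2. A relation between Eif3h and these sums was not tested.

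Markers of enterocytes were also lower in both mutant groups than in WT. The 30 markers listed summed to 33855 to 55087 CPM in Apc Eif3h, 31067 to 45913 CPM in Apc and 63622 to 85629 CPM in WT. In Apc against WT 23 of the 30 fell and 0 rose, with a median of -0.87, and in Apc Eif3h against Apc 0 passed the test, with a median of 0.13 (1 higher and 1 lower at an unadjusted p below 0.05, edgeR). The highest enterocyte sum in each mutant group belonged to Apc Eif3h replicate 3 (55087 CPM) and Apc replicate 2 (45913 CPM), the libraries that were also highest for the xenobiotic genes. Apc replicate 1 had the lowest of both sums in its group (31067 CPM for the enterocyte markers and 5450.4 CPM for the xenobiotic genes). In other libraries the order differed. Apc Eif3h replicate 2 had the lowest enterocyte sum of its group (33855 CPM) while replicate 1 was lowest for the xenobiotic genes (6293 CPM), and WT replicate 1 had the lowest enterocyte sum in WT (63622 CPM) with the highest xenobiotic sum (19742 CPM). The part of these markers in the results below was not tested. Stem cell markers went the other way, with 12 of 12 tested higher in Apc against WT (median 2.12) and 3 lower and 0 higher in Apc Eif3h against Apc. Of all genes, 27.7% were higher and 24.1% lower in Apc against WT. The shares were 4.27% higher and 2.78% lower in Apc Eif3h against Apc, and 12.6% and 11% there at an unadjusted p below 0.05 (edgeR). Markers of liver, which shares many of these enzymes, were scarce, and 3 of 9 hepatocyte markers could be tested. The list summed to 3.08 to 53.1 CPM in WT, 21.4 to 31.7 CPM in Apc and 6.48 to 29.1 CPM in Apc Eif3h. In Apc against WT 1 of the 3 fell (2 lower at an unadjusted p below 0.05, edgeR), with a median of -1.16. In Apc Eif3h against Apc 0 were called. Scarce xenobiotic genes such as Ugt2b5 (15.4 to 22.4 CPM in WT) were below the highest of these WT sums. A share of liver transcript in such genes was not tested. Pancreatic acinar markers summed to at most 0.697 CPM, with Amy2a5 at 0 throughout. B cell markers stood at 993 CPM in Apc Eif3h replicate 2, against 12.6 to 15.7 CPM in the other 3 libraries of its group.

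**Figure D1:**
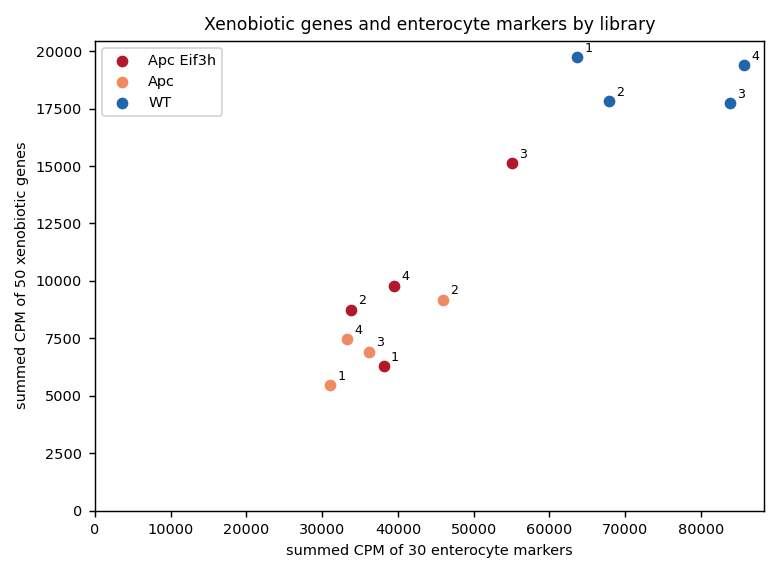
Summed CPM of the 30 enterocyte markers (horizontal axis) and of the 50 xenobiotic genes (vertical axis), with 1 point per library numbered by replicate. The WT libraries lie at the upper right, Apc Eif3h replicate 3 lies nearest to them, and the other Apc Eif3h and Apc libraries share the lower left.

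Promoters are shown for Cyp3a11 and Cyp2c65, both of which fell in Apc, and for Akr1b8, which rose. The first pair are the only genes of the list whose window holds the HNF4 element. Each sequence is the 250 bases before the RefSeq start site (GRCm38.p6), read along the gene's strand from 5′ to 3′. The Cyp3a11 window is chr5:145879855-145880104 on the minus strand, the Cyp2c65 window chr19:39060756-39061005 on the plus strand and the Akr1b8 window chr6:34353896-34354145 on the plus strand. Capitals mark a match on either strand to a motif searched. In Cyp3a11 these are the nuclear receptor hexamer AGGTCA, the variant hexamer AGTTCA as its reverse complement, and the HNF4 element CAAAGTCCA. In Cyp2c65 it is the HNF4 element, and in Akr1b8 the variant hexamer AGTTCA (reverse complement) and the core GCGTG of the element bound by Ahr.
Cyp3a11: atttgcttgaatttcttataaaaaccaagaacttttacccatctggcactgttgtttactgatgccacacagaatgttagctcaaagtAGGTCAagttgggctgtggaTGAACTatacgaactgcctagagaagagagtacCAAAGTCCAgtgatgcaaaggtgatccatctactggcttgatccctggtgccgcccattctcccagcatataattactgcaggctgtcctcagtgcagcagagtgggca
Cyp2c65: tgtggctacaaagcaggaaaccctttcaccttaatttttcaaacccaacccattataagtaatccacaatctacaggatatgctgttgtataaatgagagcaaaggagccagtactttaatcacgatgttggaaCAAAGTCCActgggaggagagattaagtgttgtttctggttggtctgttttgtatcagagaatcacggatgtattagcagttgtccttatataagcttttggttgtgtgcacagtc
Akr1b8: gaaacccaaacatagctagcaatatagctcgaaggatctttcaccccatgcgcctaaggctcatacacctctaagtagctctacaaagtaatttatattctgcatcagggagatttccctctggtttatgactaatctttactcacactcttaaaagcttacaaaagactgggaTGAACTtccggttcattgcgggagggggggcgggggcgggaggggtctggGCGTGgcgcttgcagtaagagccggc

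Over windows of 300 bases, which add 50 bases after the start, 45 of the 50 genes had an entry, and the motifs were set beside 27025 genes in all. The HNF4 element CAAAGTCCA was in 4.44% of the 45 (2 genes) and 0.474% of all genes. The core GCGTG was in 22.2% of the 45 and 32.5% of all. The antioxidant response core TGACNNNGC was in 15.6% and 12.4%, the hexamer AGGTCA in 24.4% and 16%, the hexamer AGTTCA in 17.8% and 14%, and the CDX2 element TTTATGG in 4.44% and 2.78%. The TCF/LEF element CTTTGAT was in 0 of the 45 windows and 3.76% of all. Both strands were searched, a base could count for more than 1 motif, and a match describes letters and not binding.

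Of the 3 receptors Nr1i2 fell in both mutant groups against WT, while Nr1i3 and Ahr were called in no comparison. Nr1i2, the pregnane X receptor, was at 145, 144, 203 and 165 CPM in Apc Eif3h, 150.0, 168, 145 and 140.2 CPM in Apc and 211, 185, 196 and 255 CPM in WT. Every Apc library was below every WT library, while Apc Eif3h replicate 3 reached into the WT range. The fall was 1.402-fold in Apc against WT (log2 fold change -0.49, SE 0.13, adjusted p = 0.00677, edgeR) and 1.29-fold in Apc Eif3h against WT (log2 fold change -0.36, SE 0.13, adjusted p = 0.0267). The call in Apc against WT was lost with library totals as the only scaling (adjusted p = 0.056) and with males only (adjusted p = 0.0517). That in Apc Eif3h against WT was lost in 9 of 20 alternative fits, among them sex as a covariate (adjusted p = 0.0612), the 2 groups alone (adjusted p = 0.0534) and the fits without WT replicate 4 or Apc Eif3h replicate 1, 2 or 4 (adjusted p = 0.0928, 0.0781, 0.0722 and 0.0537). Apc Eif3h against Apc gave 0.12 (SE 0.13, adjusted p = 0.606).

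Nr1i3, the constitutive androstane receptor, was at 16.98, 19.7, 25.8 and 26.9 CPM in Apc Eif3h, 23.8, 26.9, 19.7 and 23.1 CPM in Apc and 25.5, 32.3, 22.1 and 30.6 CPM in WT, and all 3 groups overlapped. Its log2 fold change was -0.24 in Apc against WT (adjusted p = 0.23) and -0.062 in Apc Eif3h against Apc (adjusted p = 0.861). Its counts are uncertain, because 66.9% of the 36-base stretches of its transcripts, the length of a read, also occur in other genes, chiefly its overlapping neighbour Tomm40l. Ahr, the aryl hydrocarbon receptor, was at 15.4, 22.2, 19.8 and 21.4 CPM in Apc Eif3h, 18.6, 18.9, 19.8 and 22.7 CPM in Apc and 25.6, 24.99, 19.5 and 22.9 CPM in WT, again with overlap between the groups. It gave -0.22 in Apc against WT (adjusted p = 0.17) and -0.022 in Apc Eif3h against Apc (adjusted p = 0.939).

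Among 12 partners and related regulators of these receptors, 8 fell in Apc against WT and 0 rose, with a median of -0.34. Of all genes, 24.1% fell and 27.7% rose there. Rxra, the dimer partner of both nuclear receptors, averaged 117 ± 22.5 CPM in Apc Eif3h, 115 ± 12.2 CPM in Apc and 195 ± 9.64 CPM in WT (Apc against WT, log2 fold change -0.76, SE 0.12, adjusted p = 0.000364; SD, n = 4). Nr1h4, the bile acid receptor, fell in Apc against WT (log2 fold change -1.12, SE 0.17, adjusted p = 0.000198) and Nfe2l2 (NRF2), which drives antioxidant genes, fell as well (log2 fold change -0.90, SE 0.16, adjusted p = 0.000556). Hnf4a, the enterocyte and liver factor, is named because its element was searched, and it gave 0.084 (adjusted p = 0.595). In Apc Eif3h against Apc, Rxrb rose (log2 fold change 0.23, SE 0.059, adjusted p = 0.0362) and none of the other 11 was called. In that comparison 4.27% of all genes rose and 2.78% fell, and at an unadjusted p below 0.05 (edgeR) 12.6% were higher and 11% lower. Of 4 tested targets of Ahr other than Cyp1a1, 3 fell in Apc against WT, led by Nqo1, a quinone reductase (log2 fold change -1.11, SE 0.18, adjusted p = 0.000388), and Ahrr, the repressor of Ahr (log2 fold change -1.08, SE 0.22, adjusted p = 0.00165), and 0 were called in Apc Eif3h against Apc (1 higher at an unadjusted p below 0.05). Of 10 NRF2 targets, 3 fell (Nqo1, Gclm and Srxn1) and 1 rose (Gsr, glutathione reductase, log2 fold change 0.86, SE 0.20, adjusted p = 0.00334) in Apc against WT, where 24.1% of all genes fell and 27.7% rose.

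Cytochromes P450, the haem oxidases of phase I, fell in 12 of 14 cases in Apc against WT, where 24.1% of all genes fell. Their median log2 fold change was -1.65. Together the 14 summed to 4806 ± 1740.2 CPM in Apc Eif3h, 3265 ± 655 CPM in Apc and 8084 ± 385 CPM in WT (SD, n = 4). Cyp3a11, a broad drug oxidase and a classical target of PXR, was at 211, 321, 1118 and 397 CPM in Apc Eif3h, 27.2, 180.4, 110.1 and 156 CPM in Apc and 1617, 1229.8, 1068 and 1198 CPM in WT. The 3 groups formed a ladder in which every Apc Eif3h library was above every Apc library, and Apc Eif3h replicate 3 alone reached into the WT range. Cyp3a11 fell 10.8-fold in Apc against WT (log2 fold change -3.43, SE 0.59, adjusted p = 0.000482) and rose 4.32-fold in Apc Eif3h against Apc (log2 fold change 2.11, SE 0.56, adjusted p = 0.0403). That rise lost its call in 13 of 20 alternative fits, and without Apc Eif3h replicate 3 it was 1.41 on the log2 scale with an adjusted p of 0.0698. Against WT, Apc Eif3h gave -1.32 (adjusted p = 0.0521), which 8 of 20 alternative fits called lower, and -2.03 without Apc Eif3h replicate 3 (adjusted p = 0.00351).

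Cyp2b10, the best known target of CAR, was at 24.3, 26.7, 139.8 and 30.5 CPM in Apc Eif3h, 10.4, 53.3, 32.96 and 26.3 CPM in Apc and 431, 335, 403 and 317 CPM in WT. Apc Eif3h replicate 3 was above every other mutant library and below all 4 of WT. Cyp2b10 fell 12.02-fold in Apc against WT (log2 fold change -3.59, SE 0.60, adjusted p = 0.000443) and 6.73-fold in Apc Eif3h against WT (log2 fold change -2.75, SE 0.58, adjusted p = 0.00157). Its log2 fold change in Apc Eif3h against Apc was 0.84 (adjusted p = 0.393). Without Apc Eif3h replicate 3 that value was -0.16, and the value against WT was -3.75. Cyp2c66, of a family that oxidises arachidonic acid and drugs, was at 11.96, 35.9, 91.03 and 37.9 CPM in Apc Eif3h, 2.05, 26.9, 18 and 12.1 CPM in Apc and 211, 154, 118 and 121 CPM in WT. Both mutant groups were below WT in all libraries. It fell 10.1-fold in Apc against WT (log2 fold change -3.33, SE 0.64, adjusted p = 0.00106) and 3.41-fold in Apc Eif3h against WT (log2 fold change -1.77, SE 0.60, adjusted p = 0.0229), and gave 1.56 in Apc Eif3h against Apc (adjusted p = 0.144). The value in Apc Eif3h against WT was -2.38 without Apc Eif3h replicate 3, and it missed the threshold in the fits without WT replicate 1 and without Apc Eif3h replicate 2 or 4 (adjusted p = 0.0547, 0.0504 and 0.0576).

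Cyp3a25, a relative of Cyp3a11, fell 4.61-fold in Apc against WT (log2 fold change -2.20, SE 0.52, adjusted p = 0.00372) and 3.73-fold in Apc Eif3h against WT (log2 fold change -1.90, SE 0.52, adjusted p = 0.00727), from libraries at 66.8, 164, 400.0 and 177 CPM in Apc Eif3h, 45.3, 278, 179 and 150.1 CPM in Apc and 739.5, 751, 820.2 and 702 CPM in WT. No mutant library reached the lowest WT library. Cyp3a13, the most abundant of the 14 in WT per kb of exon, averaged 1398 ± 465 CPM in Apc Eif3h, 889 ± 226 CPM in Apc and 1876 ± 278 CPM in WT, and fell in Apc against WT (log2 fold change -1.08, SE 0.25, adjusted p = 0.00296). Others that fell there were Cyp2c65, whose promoter is shown above, with a log2 fold change of -2.02, Cyp2c55 with -1.72, Cyp2s1 with -1.57, Cyp4v3 with -0.94 and Cyp4f14, which hydroxylates fatty acids and leukotrienes, with -0.72. Cyp2c55 was not called in Apc Eif3h against WT, with 224 ± 114 CPM in Apc Eif3h and 279 ± 90.4 CPM in WT (adjusted p = 0.604), and its libraries overlapped.

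Cyp1a1, the classical Ahr target, was scarce and scattered, at 5.95, 11.4, 10.9 and 10.1 CPM in Apc Eif3h, 0.623, 3.87, 0.925 and 9.91 CPM in Apc and 35.6, 8.05, 10.7 and 7.74 CPM in WT. WT replicate 1 was far above the other 3 WT libraries, and Apc replicate 4 overlapped WT. Its fall in Apc against WT (log2 fold change -1.96, SE 0.69, adjusted p = 0.0299) was lost in 6 of 20 alternative fits, among them males only (adjusted p = 0.0579) and the fits without Apc replicate 1, 2 or 3 (adjusted p = 0.0674, 0.0604 and 0.0728). Without WT replicate 1 it was -1.14 on the log2 scale (adjusted p = 0.149), and without Apc replicate 4 it was -3.01 (adjusted p = 0.00465). Apc Eif3h against WT gave -0.69, and 0.12 without WT replicate 1, with neither value called. Cyp2j6 fell in Apc against WT (log2 fold change -0.69, SE 0.26, adjusted p = 0.0401) with overlap between the groups, a call that was lost in 10 of 20 alternative fits. Cyp27a1, the mitochondrial sterol hydroxylase of bile acid synthesis, was at 50.2, 64.97, 110.1 and 86.7 CPM in Apc Eif3h, 84.9, 135, 128 and 100.4 CPM in Apc and 107, 124, 96.4 and 126 CPM in WT. It was the only P450 whose level in Apc Eif3h was below that in Apc by more than 0.5 on the log2 scale (-0.52, SE 0.22, adjusted p = 0.166), and it passed the test without Apc Eif3h replicate 3 (-0.71, adjusted p = 0.0388). Its fall in Apc Eif3h against WT (log2 fold change -0.54, SE 0.22, adjusted p = 0.0468) was lost in 13 of 20 alternative fits. Cyp2d26 averaged 435 ± 96.96 CPM in Apc Eif3h, 349.6 ± 90.5 CPM in Apc and 428 ± 44.3 CPM in WT and was called in no comparison.

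**Figure D2:**
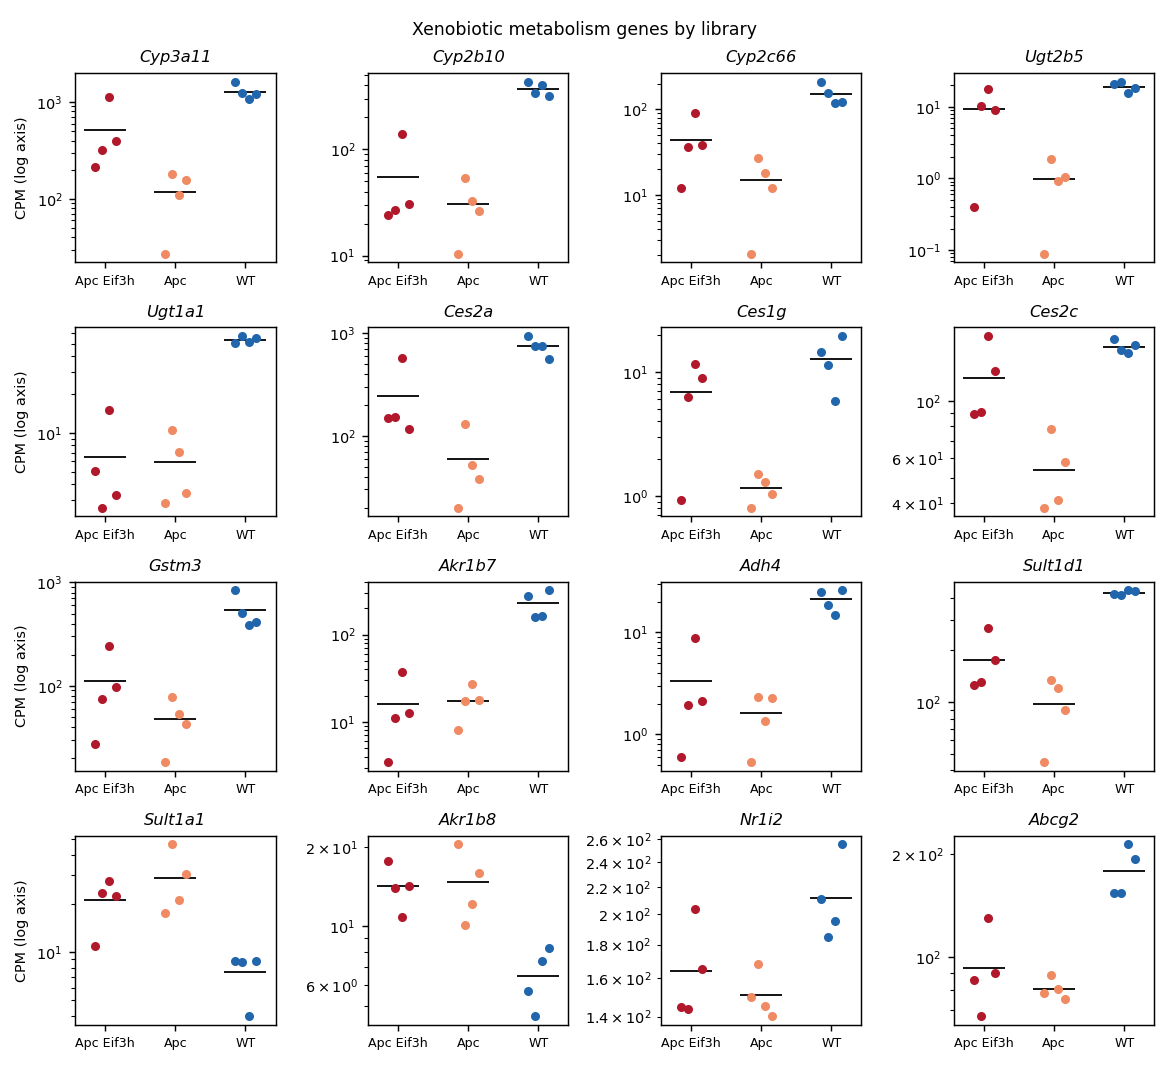
CPM on log axes of 16 of the genes in each library, with Apc Eif3h, Apc and WT from left to right and a line at each mean of 4 libraries. Cyp3a11, Cyp2b10 and Gstm3 lie below WT in every Apc library, and Sult1a1 and Akr1b8 lie above WT in every Apc Eif3h and Apc library.

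Carboxylesterases, which cut ester and amide bonds in drugs and lipids, held 3 of the 5 genes that rose in Apc Eif3h against Apc. All 7 fell in Apc against WT, each more than 2-fold and with no overlap, and their median was -1.99. The share of all genes that fell there was 24.1%, with 6.54% more than 2-fold lower. In 22% of all genes every Apc library was below every WT library. In Apc Eif3h against Apc 3 of 7 rose, where 4.27% of all genes rose, and the median was 1.26. All 3 calls were lost with males only and without Apc replicate 3. Ces2c was at 89.5, 91.1, 180.4 and 131 CPM in Apc Eif3h, 38.2, 77.7, 40.8 and 57.97 CPM in Apc and 175, 159, 155 and 166 CPM in WT. Every Apc Eif3h library was above every Apc library, and Apc Eif3h replicate 3 was above all of WT. Ces2c rose 2.29-fold in Apc Eif3h against Apc (log2 fold change 1.19, SE 0.25, adjusted p = 0.0147), the call among the 5 that was lost least often, in 2 of 20 alternative fits (males only, adjusted p = 0.0569, and without Apc replicate 3, adjusted p = 0.0599). It had fallen 3.04-fold in Apc against WT (log2 fold change -1.61, SE 0.25, adjusted p = 0.00025), and Apc Eif3h against WT gave -0.41 (adjusted p = 0.162), or -0.63 without Apc Eif3h replicate 3 (adjusted p = 0.0257). Of its 36-base stretches, 46% also occur in other genes, among them Ces2d-ps and Ces2b, so reads of the family could be split between them.

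Ces1g was at 0.936, 6.25, 11.7 and 8.97 CPM in Apc Eif3h, 0.801, 1.52, 1.31 and 1.04 CPM in Apc and 14.6, 11.5, 5.82 and 19.5 CPM in WT. Apc Eif3h replicate 1 lay within the Apc range and the other 3 lay far above it. The rise was 5.85-fold in Apc Eif3h against Apc (log2 fold change 2.55, SE 0.60, adjusted p = 0.0271) and the fall 10.7-fold in Apc against WT (log2 fold change -3.42, SE 0.60, adjusted p = 0.000568). Ces2b was at 3.34, 7.55, 15.7 and 9.87 CPM in Apc Eif3h, 0.356, 4.18, 0.979 and 2.34 CPM in Apc and 24.02, 15.8, 17.8 and 11.04 CPM in WT, with the same replicate 1 inside the Apc range. It rose 4.39-fold in Apc Eif3h against Apc (log2 fold change 2.14, SE 0.54, adjusted p = 0.0347) and fell 8.25-fold in Apc against WT (log2 fold change -3.04, SE 0.54, adjusted p = 0.000633), or 6.89-fold and 12.9-fold without Apc replicate 2. Raw counts of both genes were low in the mutants. For Ces1g they were 14 to 201 in Apc Eif3h and 9 to 29 in Apc. For Ces2b they were 50 to 253 in Apc Eif3h and 4 to 80 in Apc. The calls in Apc Eif3h against Apc were lost in 7 of 20 alternative fits for Ces1g and 9 of 20 for Ces2b, and neither gene was called in Apc Eif3h against WT (adjusted p = 0.147 and 0.117), although Ces2b was called lower there in 2 of 20, without Apc Eif3h replicate 3 (adjusted p = 0.0384) and with sex as a covariate (adjusted p = 0.0498).

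Ces2a, next to Ces2e the most abundant carboxylesterase in WT per kb of exon, was at 148, 152, 569 and 116 CPM in Apc Eif3h, 19.9, 129, 52.4 and 38.04 CPM in Apc and 940.3, 747, 757 and 563 CPM in WT. Apc Eif3h replicate 3 reached the lowest WT library, and the other 3 stood near the highest Apc library. It had the largest fall of its class in Apc against WT, 12.5-fold (log2 fold change -3.65, SE 0.62, adjusted p = 0.000459), and gave 2.03 in Apc Eif3h against Apc (SE 0.58, adjusted p = 0.0533). That value was 1.23 without Apc Eif3h replicate 3 (adjusted p = 0.107), 2.74 without Apc replicate 2 (adjusted p = 0.0251), and called higher by DESeq2 (adjusted p = 0.0164). The fall in Apc against WT was 20.3-fold without Apc replicate 2. In Apc Eif3h against WT it fell 3.05-fold (adjusted p = 0.028), a call lost without WT replicate 1 or Apc Eif3h replicate 1, 2 or 4 (adjusted p = 0.0591, 0.0733, 0.066 and 0.076), and the fall was 5.35-fold without Apc Eif3h replicate 3.

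Ces1d, a triacylglycerol hydrolase, was at 3.61, 4.52, 9.43 and 5.27 CPM in Apc Eif3h, 7.12, 7.26, 5.82 and 6.44 CPM in Apc and 33.6, 19.7, 13.97 and 19.9 CPM in WT, and both mutant groups were below WT in all libraries. It fell 3.28-fold in Apc against WT (log2 fold change -1.71, SE 0.30, adjusted p = 0.000513) and 3.81-fold in Apc Eif3h against WT (log2 fold change -1.93, SE 0.30, adjusted p = 0.000177). Ces2e averaged 723 ± 294 CPM in Apc Eif3h, 583 ± 165 CPM in Apc and 1502 ± 149 CPM in WT. It fell in Apc against WT (log2 fold change -1.37, SE 0.26, adjusted p = 0.000865) and in Apc Eif3h against WT (log2 fold change -1.06, SE 0.25, adjusted p = 0.00349). Ces1f gave 1.26 in Apc Eif3h against Apc (adjusted p = 0.197) from libraries at 11.8, 110.4, 121 and 111 CPM in Apc Eif3h, 20.5, 40.1, 26.3 and 60.6 CPM in Apc and 171, 119, 81.1 and 217 CPM in WT. Apc Eif3h replicate 1 was far below the rest of its group and below every Apc library, and without it Ces1f was called higher (log2 fold change 1.63, adjusted p = 0.0315). Its fall in Apc against WT was lost with males only (adjusted p = 0.0849).

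**Figure D3:**
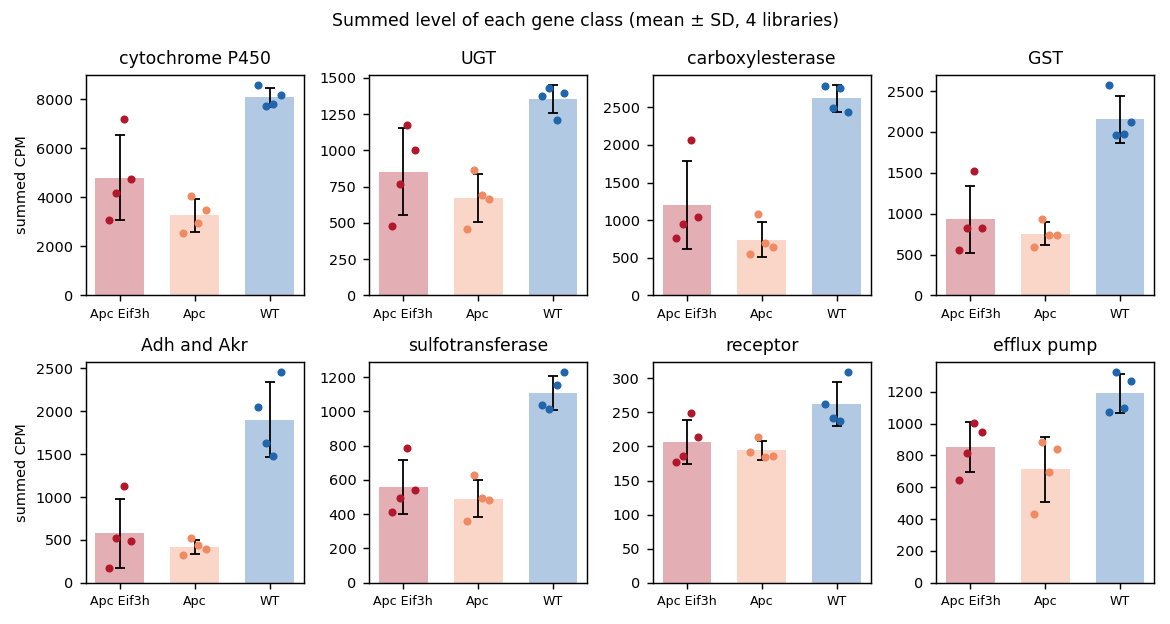
Summed CPM of each gene class as bars of the mean ± SD of 4 libraries with 1 point per library, for Apc Eif3h, Apc and WT from left to right. In all 8 classes the Apc mean is below the WT mean, and the Apc Eif3h mean lies between the other 2.

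Alcohol dehydrogenases and aldo-keto reductases, which interconvert alcohols, aldehydes and ketones, split in direction. Adh1, Adh4, Adh6a and Akr1b7 fell in Apc against WT and Akr1b8 rose. Akr1b7 was at 3.48, 11.2, 37.5 and 12.5 CPM in Apc Eif3h, 8.01, 17.4, 27.3 and 17.6 CPM in Apc and 278, 159, 162 and 323 CPM in WT, and WT was above both mutant groups in all libraries. It had the largest fall of the class, 13-fold in Apc against WT (log2 fold change -3.70, SE 0.58, adjusted p = 0.000282) and 14.2-fold in Apc Eif3h against WT (log2 fold change -3.83, SE 0.59, adjusted p = 0.000168), which was 24.8-fold without Apc Eif3h replicate 3. Akr1b8, its neighbour on chromosome 6, was at 17.7, 13.98, 10.9 and 14.2 CPM in Apc Eif3h, 20.5, 10.1, 12.1 and 15.98 CPM in Apc and 5.66, 4.56, 7.403 and 8.24 CPM in WT, with every library of both mutant groups above every WT library. It rose 2.26-fold in Apc against WT (log2 fold change 1.18, SE 0.25, adjusted p = 0.00176) and 2.201-fold in Apc Eif3h against WT (log2 fold change 1.14, SE 0.25, adjusted p = 0.00178). Neither was called in Apc Eif3h against Apc, with means of 14.2 ± 2.802 CPM in Apc Eif3h and 14.7 ± 4.58 CPM in Apc for Akr1b8 and 16.2 ± 14.8 CPM in Apc Eif3h and 17.6 ± 7.85 CPM in Apc for Akr1b7.

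Adh4, a class II alcohol dehydrogenase, was at 0.602, 1.92, 8.81 and 2.14 CPM in Apc Eif3h, 0.534, 2.299, 1.36 and 2.28 CPM in Apc and 24.8, 18.8, 14.8 and 26.03 CPM in WT. Both mutant groups were below WT throughout, and Apc Eif3h replicate 3 was the highest mutant library. It fell 12.4-fold in Apc against WT (log2 fold change -3.63, SE 0.59, adjusted p = 0.000345) and 6.29-fold in Apc Eif3h against WT (log2 fold change -2.65, SE 0.55, adjusted p = 0.0013). Its value in Apc Eif3h against Apc, 0.98 (adjusted p = 0.373), was -0.06 without Apc Eif3h replicate 3, and the fall in Apc Eif3h against WT was then 12.9-fold. Adh1, which oxidises ethanol and retinol, was at 56.7, 282, 433 and 188 CPM in Apc Eif3h, 74.3, 163, 93.99 and 128 CPM in Apc and 550.2, 538, 452 and 811 CPM in WT. No mutant library reached WT, and the Apc Eif3h libraries ranged from below the lowest Apc library to just under the WT range. It fell 5.11-fold in Apc against WT (log2 fold change -2.35, SE 0.47, adjusted p = 0.00134) and 2.45-fold in Apc Eif3h against WT (log2 fold change -1.29, SE 0.45, adjusted p = 0.0276), and gave 1.06 in Apc Eif3h against Apc (adjusted p = 0.181). The call in Apc Eif3h against WT was lost with males only and without WT replicate 4 or Apc Eif3h replicate 4 (adjusted p = 0.0825, 0.0773 and 0.0718), and Apc Eif3h against Apc was called higher without Apc Eif3h replicate 1 (log2 fold change 1.39, adjusted p = 0.0328). Adh6a averaged 303 ± 235 CPM in Apc Eif3h, 272 ± 50.8 CPM in Apc and 1058 ± 215 CPM in WT and fell 3.896-fold in Apc against WT and 3.49-fold in Apc Eif3h against WT (adjusted p = 0.00243 and 0.00335), the second 5.45-fold without Apc Eif3h replicate 3.

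All 5 UGTs, which attach glucuronate in phase II, fell in Apc against WT, with a median of -1.52 and no overlap with WT. The share of all genes that fell there was 24.1%, and 22% had every Apc library below every WT library. Ugt2b5 had the largest fold changes of the whole list in both Apc against WT and Apc Eif3h against Apc. It was at 0.401, 10.2, 17.9 and 9.02 CPM in Apc Eif3h, 0.0891, 1.88, 0.925 and 1.04 CPM in Apc and 21, 22.4, 15.4 and 18.2 CPM in WT. Apc Eif3h replicates 2 to 4 lay above all Apc libraries, with replicate 3 inside the WT range, and replicate 1 lay within the Apc range. Ugt2b5 fell 18.1-fold in Apc against WT (log2 fold change -4.17, SE 0.73, adjusted p = 0.000577) and rose 8.82-fold in Apc Eif3h against Apc (log2 fold change 3.14, SE 0.74, adjusted p = 0.0256), a call lost in 7 of 20 alternative fits. In Apc Eif3h against WT it gave -1.03 (adjusted p = 0.146), or -1.52 without Apc Eif3h replicate 3 (adjusted p = 0.0451). Its raw counts were low in the mutants, 6 to 288 in Apc Eif3h and 1 to 36 in Apc, and 51.7% of its 36-base stretches occur in other Ugt2b genes.

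Ugt1a1, the enzyme that conjugates bilirubin, was at 5.08, 2.599, 15.1 and 3.304 CPM in Apc Eif3h, 2.85, 10.6, 7.13 and 3.37 CPM in Apc and 50.1, 57.3, 50.99 and 55.8 CPM in WT, and the highest mutant library stayed far below the lowest WT library. It fell 8.79-fold in Apc against WT (log2 fold change -3.14, SE 0.51, adjusted p = 0.000333) and 8.28-fold in Apc Eif3h against WT (log2 fold change -3.05, SE 0.50, adjusted p = 0.000292), which was 14.5-fold without Apc Eif3h replicate 3. Ugt1a7c, read from the same locus with a first exon of its own, was at 41.3, 62.2, 114 and 89.5 CPM in Apc Eif3h, 28.2, 45.7, 40.9 and 52.6 CPM in Apc and 129, 120.1, 94.5 and 137 CPM in WT. All Apc libraries were below WT, and Apc Eif3h overlapped both. It fell 2.86-fold in Apc against WT (log2 fold change -1.52, SE 0.27, adjusted p = 0.000674) and gave 0.87 in Apc Eif3h against Apc (adjusted p = 0.0713), which DESeq2 (adjusted p = 0.0129) and the fit without Apc Eif3h replicate 1 (adjusted p = 0.0249) called higher. Because the Ugt1a genes share their last exons, 81% of the stretches of Ugt1a1 and 55% of those of Ugt1a7c are shared and their counts may be split. Ugt2a3 was at 33.1, 58.3, 101 and 75.6 CPM in Apc Eif3h, 36.4, 114, 63.2 and 64.6 CPM in Apc and 137, 147, 150.4 and 135 CPM in WT, with no mutant library in the WT range. It fell in Apc against WT (log2 fold change -1.03, SE 0.33, adjusted p = 0.0193) and in Apc Eif3h against WT (log2 fold change -1.09, SE 0.33, adjusted p = 0.0132). Ugt2b34, the most abundant UGT in WT per kb of exon, averaged 695 ± 234 CPM in Apc Eif3h, 553 ± 125 CPM in Apc and 1018 ± 81.6 CPM in WT and fell in Apc against WT (log2 fold change -0.88, SE 0.23, adjusted p = 0.00736). With males only the calls in Apc against WT were lost for Ugt2a3 (adjusted p = 0.0762) and Ugt2b34 (adjusted p = 0.0509).

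GSTs, which join glutathione to reactive molecules, fell in 9 of 10 cases in Apc against WT, with a median of -1.31, and 7 of 10 fell in Apc Eif3h against WT. The shares of all genes that fell were 24.1% and 28.1%. None of the GSTs was called in Apc Eif3h against Apc (1 higher at an unadjusted p below 0.05, edgeR, where 12.6% of all genes were higher). Gstm3 was at 27.4, 73.7, 244 and 96.4 CPM in Apc Eif3h, 18.3, 77.7, 52.98 and 42.9 CPM in Apc and 844, 506, 391 and 416 CPM in WT. WT was above every mutant library. It fell 11.2-fold in Apc against WT (log2 fold change -3.49, SE 0.60, adjusted p = 0.000514) and 4.88-fold in Apc Eif3h against WT (log2 fold change -2.29, SE 0.57, adjusted p = 0.00443), and its value in Apc Eif3h against Apc, 1.20 (adjusted p = 0.215), was 0.47 without Apc Eif3h replicate 3, and the fall in Apc Eif3h against WT was then 8.06-fold. Gstm1 was at 35.4, 74.4, 120.1 and 67.1 CPM in Apc Eif3h, 47.5, 68.5, 54.8 and 57.5 CPM in Apc and 372, 204, 168 and 219 CPM in WT, with no mutant library in the WT range. The fall was 4.21-fold in Apc against WT (log2 fold change -2.07, SE 0.32, adjusted p = 0.00027) and 3.24-fold in Apc Eif3h against WT (log2 fold change -1.70, SE 0.32, adjusted p = 0.000732).

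Gsta1 was at 3.81, 16.2, 54.2 and 19.1 CPM in Apc Eif3h, 6.14, 15.3, 9.14 and 6.69 CPM in Apc and 76.6, 63.7, 32.9 and 46.4 CPM in WT. Apc Eif3h replicate 1 was the lowest library of all 12 and replicate 3 was inside the WT range. Gsta1 fell 5.84-fold in Apc against WT (log2 fold change -2.55, SE 0.59, adjusted p = 0.00347), but 92.3% of its stretches occur in other genes such as Gsta2, so the value may be that of the subfamily. In Apc against WT the log2 fold change was -1.84 for Gsta4, which detoxifies products of lipid peroxidation, -1.22 for Gstt1 and -0.92 for Gstp1, all of which fell, although the call on Gstt1 was lost with males only (adjusted p = 0.0691). Of the microsomal enzymes Mgst2 fell with -1.41 and Mgst3 with -1.19. Mgst1 had the smallest called fall among the GSTs, -0.39 (adjusted p = 0.0295), which 6 of 20 alternative fits lost. Mgst3 averaged 183 ± 74.3 CPM in Apc Eif3h, 178 ± 31.5 CPM in Apc and 405 ± 72.2 CPM in WT, and it fell in Apc Eif3h against WT (log2 fold change -1.14, SE 0.24, adjusted p = 0.00131). Gstk1, of mitochondria and peroxisomes, was not called although all Apc libraries were below WT (-0.83, adjusted p = 0.0776), and 5 of 20 alternative fits called it lower, among them DESeq2 (adjusted p = 0.0304), the 2 groups alone (adjusted p = 0.0251) and the fits without Apc replicate 2 or Apc Eif3h replicate 1 (adjusted p = 0.0483 and 0.0236).

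The 3 sulfotransferases also split. Sult1a1, which sulfates phenols, was at 10.8, 23.3, 27.8 and 22.4 CPM in Apc Eif3h, 17.5, 46.7, 21 and 30.5 CPM in Apc and 8.75, 8.69, 3.99 and 8.73 CPM in WT, with all mutant libraries above all WT libraries. It rose 3.84-fold in Apc against WT (log2 fold change 1.94, SE 0.36, adjusted p = 0.000844) and 2.79-fold in Apc Eif3h against WT (log2 fold change 1.48, SE 0.36, adjusted p = 0.00378), and both calls held in all 20 alternative fits. Sult1d1, which in mice sulfates catecholamines, was at 125, 130.4, 269.5 and 175 CPM in Apc Eif3h, 44.8, 135, 121 and 89.7 CPM in Apc and 422, 416, 445 and 439.6 CPM in WT. WT varied little and stood above every mutant library. It fell 4.41-fold in Apc against WT (log2 fold change -2.14, SE 0.31, adjusted p = 0.000159) and 2.46-fold in Apc Eif3h against WT (log2 fold change -1.30, SE 0.30, adjusted p = 0.00282), and gave 0.84 in Apc Eif3h against Apc (adjusted p = 0.111), which DESeq2 called higher (adjusted p = 0.0356). Sult1b1 was at 277, 342, 487 and 345 CPM in Apc Eif3h, 299, 448, 350.0 and 364 CPM in Apc and 607, 588, 706 and 779 CPM in WT, again with WT on top. It fell 1.84-fold in Apc against WT (log2 fold change -0.88, SE 0.17, adjusted p = 0.00125) and 1.85-fold in Apc Eif3h against WT (log2 fold change -0.88, SE 0.17, adjusted p = 0.000956).

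All 3 efflux pumps of the apical membrane fell in Apc against WT. Abcg2, the breast cancer resistance protein, was at 85.6, 67.1, 130.4 and 89.5 CPM in Apc Eif3h, 78.5, 88.3, 80.6 and 75.3 CPM in Apc and 154, 154, 214 and 194 CPM in WT, and no mutant library reached WT. It fell 2.22-fold in Apc against WT (log2 fold change -1.15, SE 0.17, adjusted p = 0.000225) and 1.92-fold in Apc Eif3h against WT (log2 fold change -0.94, SE 0.17, adjusted p = 0.000634). Abcb1a, P-glycoprotein, was at 159.6, 226, 261 and 237 CPM in Apc Eif3h, 51.6, 205, 111 and 174 CPM in Apc and 207, 279.9, 262 and 256 CPM in WT. Apc was below WT, with replicate 1 lowest, and Apc Eif3h overlapped both groups. Its fall in Apc against WT (log2 fold change -0.89, SE 0.32, adjusted p = 0.032) was lost in 6 of 20 alternative fits, and Apc Eif3h against WT gave -0.19 (adjusted p = 0.633). Abcc2, which exports glucuronides and glutathione conjugates, was at 400.2, 525, 609.9 and 621 CPM in Apc Eif3h, 302, 590.2, 502 and 592 CPM in Apc and 714, 887, 620.0 and 817 CPM in WT. Apc was below WT and Apc Eif3h overlapped both. Its fall in Apc against WT (log2 fold change -0.61, SE 0.21, adjusted p = 0.0268) was also lost in 6 of 20 fits. Of 5 other efflux pumps, Abcc1, Abcc4 and Abcc5 rose in Apc against WT with log2 fold changes of 1.31, 0.95 and 1.28 (adjusted p = 0.000223, 0.00198 and 4.04e-05), while Abcc3 fell (log2 fold change -1.56, SE 0.24, adjusted p = 0.000261). None of these 5 was called in Apc Eif3h against Apc (1 higher and 1 lower at an unadjusted p below 0.05). Of all genes, 27.7% rose and 24.1% fell in Apc against WT. At that unadjusted p, 12.6% were higher and 11% lower in Apc Eif3h against Apc.

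Another 61 enzymes and partners of the pathway outside the list were read in the same way, and 57 could be tested. In Apc against WT 38 fell and 2 rose, with a median of -0.87, where 24.1% of all genes fell and 27.7% rose. Those that fell with the smallest p were Ugt1a6a, of the Ugt1a locus (log2 fold change -2.07, SE 0.20, adjusted p = 1.66e-05), Cyb5a, cytochrome b5, which passes electrons to P450s (log2 fold change -1.47, SE 0.22, adjusted p = 0.000188), and Aldh1a1, which oxidises retinal (log2 fold change -2.25, SE 0.34, adjusted p = 0.000232). The 2 that rose were Gstm5 (log2 fold change 0.87, SE 0.14, adjusted p = 0.00028) and Akr1b3, aldose reductase (log2 fold change 0.86, SE 0.19, adjusted p = 0.00223). In Apc Eif3h against Apc 2 rose, Aldh1a1 (log2 fold change 1.37, SE 0.33, adjusted p = 0.0302) and Maoa, a monoamine oxidase (log2 fold change 0.87, SE 0.23, adjusted p = 0.041), and 2 fell, Gstm5 (log2 fold change -0.56, SE 0.14, adjusted p = 0.0288) and Tpmt (log2 fold change -0.64, SE 0.12, adjusted p = 0.0107). These counts are near the shares of all genes, 4.27% higher and 2.78% lower. The 57 had a median of 0.13 in that comparison. Against WT, Apc Eif3h had 32 that fell and 4 that rose, where 28.1% of all genes fell and 29.8% rose.

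Many of the 50 genes are neighbours. Counting genes less than 1 Mb apart on GRCm38, 30 of the 50 lie in 11 clusters. Ces2a, Ces2b, Ces2c and Ces2e lie within chr8:104734003-104934672, Ces1d, Ces1f and Ces1g within chr8:93166068-93337308, Cyp2c55, Cyp2c65 and Cyp2c66 within chr19:39007019-39187072, and Adh1, Adh4 and Adh6a within chr3:138260991-138430892. All genes of these 4 clusters fell in Apc against WT. The largest cluster, chr5:86889767-87569027, holds Ugt2b34, Ugt2b5, Ugt2a3, Sult1b1 and Sult1d1, all of which fell as well. Akr1b8 and Akr1b7 are 43.9 kb apart on chromosome 6 (chr6:34354119-34423142), and this was the only cluster in which called genes went both ways. Within clusters the sizes differed, for example 12.5-fold for Ces2a and 2.58-fold for Ces2e in Apc against WT, and reads of near-identical neighbours can be split between them. Leaving out the 14 genes with more than 25% of stretches shared left 30 of 36 lower and 2 higher in Apc against WT, 3 higher in Apc Eif3h against Apc and 20 lower and 2 higher in Apc Eif3h against WT. The shares over all genes were 24.1% lower and 27.7% higher in Apc against WT and 4.27% higher in Apc Eif3h against Apc. In Apc Eif3h against WT they were 28.1% lower and 29.8% higher.

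Levels can be compared between genes as CPM per kb of exon. On that scale Cyp3a13, at 473 ± 157 CPM per kb in Apc Eif3h, 301 ± 76.4 in Apc and 635 ± 93.9 in WT, was the most abundant of the 50 in Apc Eif3h and WT. In Apc Cyp4f14 came first, at 386 ± 58.3 in Apc Eif3h, 317 ± 36.5 in Apc and 522 ± 47.02 in WT, within the spread of Cyp3a13. Gstm3 was among the 5 most abundant genes in WT, at 411 ± 159, but stood at 84.3 ± 71.5 in Apc Eif3h and 36.6 ± 18.8 in Apc. Sult1a1 and Akr1b8, the genes that rose, were among the scarcest in WT, at 13.98 ± 4.797 in Apc Eif3h, 19.2 ± 8.65 in Apc and 5.005 ± 1.57 in WT for Sult1a1 and at 9.46 ± 1.87 in Apc Eif3h, 9.79 ± 3.06 in Apc and 4.31 ± 1.11 in WT for Akr1b8.

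**Figure D4:**
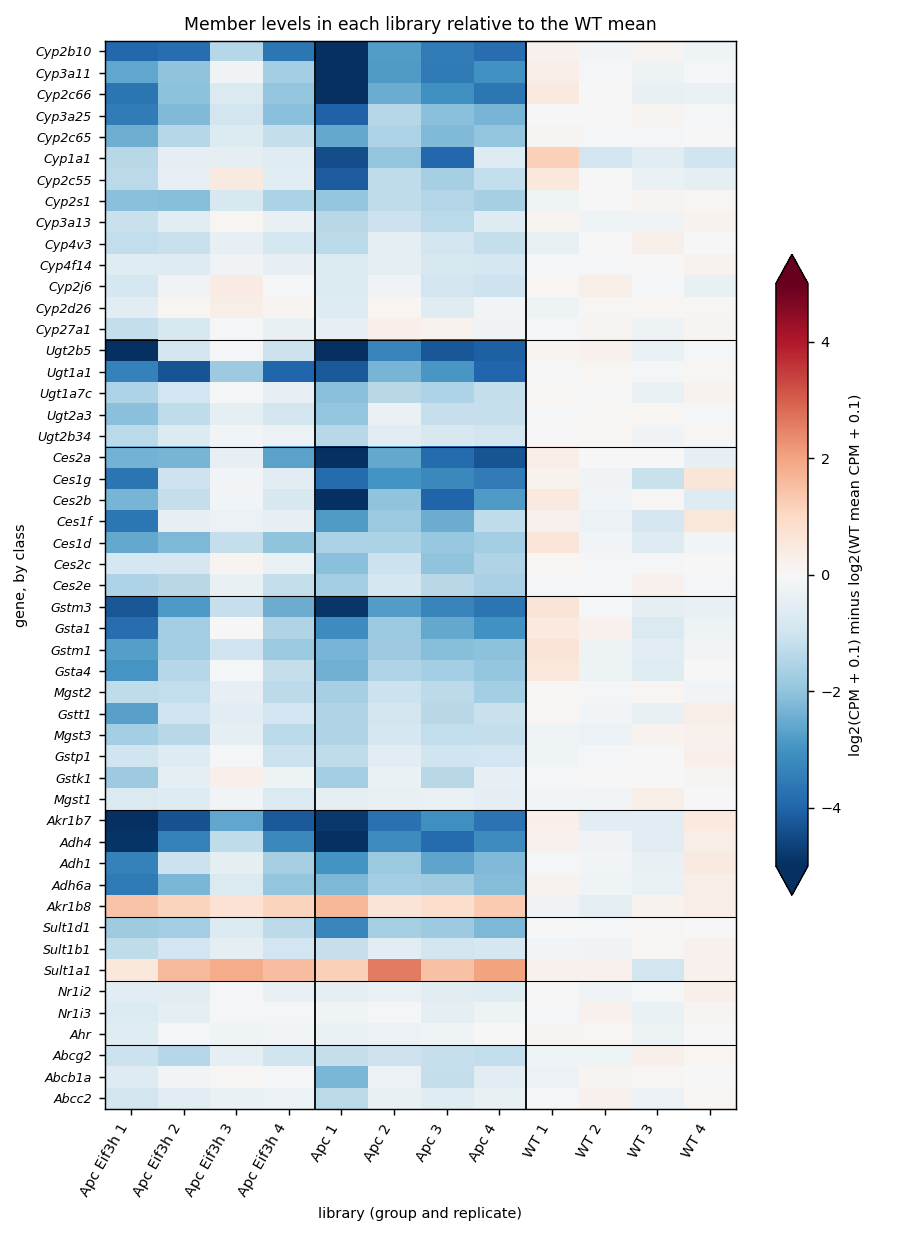
Level of each of the 50 genes in each of the 12 libraries as log2(CPM + 0.1) minus the log2 of the WT mean + 0.1, with Apc Eif3h, Apc and WT from left to right, classes separated by lines and colours ending at -5 and 5. The column of Apc Eif3h replicate 3 is nearest to WT among the mutant libraries, and the rows of Akr1b8 and Sult1a1 are red in all mutant libraries.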

How the data were processed

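Whole-number read counts per gene, not normalized, were deposited by the authors for 12 libraries. RNA was purified with an RNeasy Micro kit, and TruSeq RNA libraries were read on a NextSeq 500 as pairs of 36 bases, per the labels' protocols. Trimming with Trim Galore 0.6.4, quality checks with FastQC 0.11.8, alignment with HISAT2 2.1.0 and counting with featureCounts 1.6.4 on GRCm38 are tools and a build listed in the submitters' processing notes. The sources used here do not give the annotation, the strand setting or how reads with several matches were counted.

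Libraries were grouped by the sample labels. Symbols, exon lengths and coordinates came from GENCODE release M21 (GRCm38), which held 55240 of the 55421 gene identifiers. The main test was edgeR 4.0.16 (R 4.3.3), with filterByExpr by group, TMM factors and 1 quasi-likelihood model of all 12 libraries, Benjamini-Hochberg adjustment over the 17394 genes tested, and calls at an adjusted p below 0.05. SE is the absolute log2 fold change over the square root of F. The scripts were tested on simulated data. Library totals were 10483112 to 21298301 counts, and replicates of a group differed by more than counting error (chi-square per gene from 16.5 to 47.8). Shared stretches are the 36-base words of a gene's transcripts that also occur in transcripts of another gene. Promoters are from RefSeq, 1 window per gene.

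The 50 genes and all lists were chosen with earlier results of these data known. The lists were other xenobiotic enzymes, other efflux pumps, receptor partners, NRF2 targets, Ahr targets and markers of enterocytes, proximal and distal gut, stem cells, hepatocytes, pancreas, goblet and Paneth cells, B cells, T cells, macrophages and stroma. The genes to name were, per class and comparison, the 3 called genes with the largest change, plus the receptors, the efflux pumps and genes that went against their class. Others, such as Cyp1a1, Cyp27a1 and Ces1f, were named after their values were seen. Of other lists, up to 3 called genes with the smallest p were named. Alternatives were library totals only, DESeq2 1.42.0 and its size factors, no low-count filter, the 2 groups of a comparison alone, a replicate block, males only and leaving out each library. Sex as a covariate and leaving out genes with shared stretches were added after seeing the data.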

Additional observations from a re-analysis of the deposited data

Results flagged for a closer look

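In each group of 4 libraries, a gene was marked where its highest or lowest library lay apart from the other 3 by Dixon's test at the 95% level. Of 150 sets, 9 were marked, and chance marks about 1 in 20. In Apc Eif3h, replicate 3 was the library set apart in 4 cases. Cyp2b10 was at 139.8 CPM there against 24.3 to 30.5 CPM in the other 3, Ces2a at 569 CPM against 116 to 152 CPM, Mgst1 at 176 CPM against 117 to 123 CPM, and Mgst2 at 187 CPM against 99.8 to 105 CPM. Ces1f was at 11.8 CPM in Apc Eif3h replicate 1 against 110.4 to 121 CPM in the others. In WT, replicate 1 had Cyp1a1 at 35.6 CPM against 7.74 to 10.7 CPM, and Cyp2d26 at 362 CPM against 445 to 456 CPM. WT replicate 3 had Ces2e at 1726 CPM against 1419 to 1440.4 CPM and Sult1a1 at 3.99 CPM against 8.69 to 8.75 CPM.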

How the results depend on the processing

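Of the calls on single genes, 21 of 28 lower and 2 of 2 higher in Apc Eif3h against WT held in all 20 alternatives, as did 33 of 43 lower and 2 of 2 higher in Apc against WT, but 0 of 5 in Apc Eif3h against Apc. The causes of lost calls were not tested. The number of xenobiotic genes called higher in Apc Eif3h against Apc, 5 in all, was 9 with DESeq2, 2 with the 2 groups alone, 2 with the replicate block (which also called Gstk1 lower in Apc against WT, adjusted p = 0.031, and lost Cyp1a1 there, adjusted p = 0.0563) and 0 with males only, and 0 to 9 when 1 library was left out. Of all genes, 4.27% were called higher there in the main fit and 6.16% with DESeq2. The share was 3.39% with the 2 groups alone, 3.41% with the replicate block and 2.24% with males only. It was 1.37% to 6.51% when 1 library was left out. The number of xenobiotic genes called lower was 0 to 1 (Cyp27a1, without Apc Eif3h replicate 3, where 3.48% of all genes were lower). The labels state no pairing of replicates. The correlation of same-numbered libraries, after removal of group means, was -0.142 to 0.236. It was not computed for differently numbered libraries, so it cannot show whether samples were paired.

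Over all genes in Apc Eif3h against Apc, 743 rose and 483 fell. With library totals as the only scaling 485 rose, with males only 400 rose and 259 fell, and without a low-count filter 306 fell. With 1 library left out 242 to 1152 rose and 164 to 615 fell, both fewest without Apc replicate 3, and the most rose without Apc Eif3h replicate 3. Leaving out any 1 of the 8 mutant libraries moved at least 1 of the counts by over 1.5 times. With library totals only, 3175 genes fell in Apc Eif3h against WT and 2393 in Apc against WT. That scaling put the all-gene median at 0.17 and 0.22 on the log2 scale, and the higher calls at 67.5% of all calls in Apc Eif3h against WT (51.5% with TMM), 74% in Apc against WT (53.5%) and 49.8% in Apc Eif3h against Apc (60.6%). The median of the 50 genes was then -0.74 in Apc Eif3h against WT, -1.31 in Apc against WT and 0.31 in Apc Eif3h against Apc.

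Among named genes, signs turned only where there was no call. With library totals only, Abcb1a in Apc Eif3h against WT was 0.0098 and Ahr in Apc against WT was 0.0082. In Apc Eif3h against Apc with 1 library left out, Cyp2b10 ranged from -0.16 (without Apc Eif3h replicate 3) to 1.24, Adh4 from -0.063 (without Apc Eif3h replicate 3) to 1.30, Nr1i3 from -0.16 to 0.049 (0.014 without Apc replicate 2 and 0.049 without Apc Eif3h replicate 1) and Ahr from -0.082 to 0.079 (0.045 without Apc replicate 4 and 0.079 without Apc Eif3h replicate 1). Cyp1a1 in Apc Eif3h against WT ranged from -0.91 to 0.12 (without WT replicate 1). Ces2c in Apc Eif3h against WT was called lower without Apc Eif3h replicate 3 (log2 fold change -0.63). A further 31 effects without a call, each at most 0.5 on the log2 scale and with no fold change printed, were recomputed in 620 fits, of which 58 gave the other sign and 8 passed the test.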

Other observations

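Other cell types of the intestine were read from their markers in the same fits. Goblet and Paneth cell markers summed to 5430.1 to 11487 CPM in Apc Eif3h, 6703 to 12371 CPM in Apc and 10579.8 to 16212 CPM in WT, with 1 of 11 higher and 5 lower in Apc against WT and 0 called in Apc Eif3h against Apc (1 higher and 1 lower at an unadjusted p below 0.05, edgeR). T cell markers summed to 64.2 to 107 CPM in Apc Eif3h, 61.2 to 99.4 CPM in Apc and 122 to 392 CPM in WT, and 7 of 7 tested fell in Apc against WT. Macrophage markers fell in 5 of 7 cases and stromal markers in 5 of 11 in Apc against WT. Of 6 tested markers of proximal small intestine 2 rose and 3 fell, and of 5 tested markers of distal small intestine 2 rose and 2 fell, in Apc against WT. For T cells, macrophages, stroma and both positions along the gut, 0 were called in Apc Eif3h against Apc (at an unadjusted p below 0.05, 4 stromal markers and 1 distal marker were lower and 1 distal marker was higher). B cell markers gave 0 calls among 4 tested in Apc Eif3h against Apc, with 4 higher at an unadjusted p below 0.05, and 1 higher in Apc Eif3h against WT. Their sum was 993 CPM in Apc Eif3h replicate 2 alone and 12.6 to 15.7 CPM in the rest of that group. It was 14.2 to 19.3 CPM in Apc and 26.3 to 158 CPM in WT. Of 10 NRF2 targets, 4 rose and 2 fell in Apc Eif3h against WT, where 29.8% of all genes rose and 28.1% fell. Among the same 10, 0 were called in Apc Eif3h against Apc (3 higher at an unadjusted p below 0.05, edgeR, where 12.6% of all genes were higher). For all these lists, the shares over all genes were 27.7% higher and 24.1% lower in Apc against WT and 4.27% higher and 2.78% lower in Apc Eif3h against Apc. At an unadjusted p below 0.05 (edgeR) the shares in Apc Eif3h against Apc were 12.6% higher and 11% lower.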
